A study of Danio rerio with 36 samples.

Results

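The cells of the zebrafish eye that carry no GFP in Tg(GFAP:GFP) were compared between 96 and 60 hours post fertilization (hpf). They are what remained when GFP-positive cells were sorted out by fluorescence, and their libraries are called C. The study took the GFP-positive cells as Müller glia (MG), the radial glia of the retina. The 3 samples labelled as gfap negative at 96hpf (96hpf C) and the 3 at 60hpf (60hpf C) were taken, which are 6 of the 36 samples of the series. The others are C at 48, 72, 120, and 192hpf and the GFP fraction at all 6 stages. Both groups carry the reporter, in which a gfap promoter drives GFP, and their genotype is given as control. By the methods, whole eyes of several larvae were pooled for each stage, embryos had been kept in phenylthiourea, which blocks melanin synthesis, and RNA was amplified before the libraries were made, so that a library could hold sorted cells of the lens, cornea, and tissue around the eye as well as those of the retina.

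Retinal neurons of zebrafish are born in an order that is much the same in all vertebrates, with ganglion cells early and rods, bipolar cells, and Müller glia late. Once born, photoreceptors build an outer segment filled with opsin and the enzymes that turn light into an electrical signal, and they form ribbon synapses with bipolar and horizontal cells, after which vision begins. The rim of the retina keeps dividing cells that add new neurons throughout life.

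The values are CPM, the reads of a gene scaled to libraries of 1000000 reads. The 3 columns of a group differed from each other by no more than the sampling of reads would make them differ. The median chi-square ratio, which is 1 for repeated sampling of the same RNA, was 0.129 to 0.991 within 96hpf C and 0.138 to 0.974 within 60hpf C, against 15.4 to 15.7 for the 9 pairs of a 96hpf C and a 60hpf C column. Each group was therefore counted as 1 library (n = 1), so that the differences have no replicate check and no p-value is given. The study describes 3 replicates for each stage, and the reading as 1 library is an inference from these ratios. The 3 values given for a gene are columns of 1 library. Whether they overlap or lie apart between the groups speaks to counting error only and is no replicate check. The columns held 7384996 to 7404255 reads in 96hpf C, against 6748418 to 6769549 reads in 60hpf C. Values under 3 reads of the shallower library (0.44 CPM) were set to that floor, and a gene was called when its mean CPM differed at least 2-fold. The interval in parentheses after a fold is an exact 95% interval that covers counting error only.

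Between 60 and 96hpf the cells without GFP gained RNA of effectors of vision, such as *rho* and *cabp5b*, while the transcription factors of photoreceptors and bipolar cells, *foxq2* apart, stayed within 2-fold. Ganglion and amacrine cell factors such as *irx4b* and *tfap2a* were lower at 96hpf. Clock genes, led by *nr1d1* and *BHLHE41*, were higher, and so were genes of skin, connective tissue, muscle, and vessels.

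Of 18340 genes above the floor in either group, 2993 (16.3%) were at least 2-fold higher in 96hpf C and 1099 (5.99%) at least 2-fold lower, while the median gene stood at a log2 of -0.02. In 666 of the higher genes 60hpf C was under the floor, and in 177 of the lower genes 96hpf C was. Their folds were taken against the floor. All 3 columns of 96hpf C lay on one side of all 3 of 60hpf C in 2949 of the higher and 1077 of the lower genes. The columns of a group were counted as the same library, so that these counts cover counting error only and add no support to the calls. The share of all genes with columns apart is not given here. Higher calls made up 73.1% of all calls. Under quantile normalization across the C columns, which moved the median gene to -0.12, there were 2177 higher and 1581 lower calls and the share was 57.9%. At least 8-fold differences were found in 192 genes that were higher and in 9 that were lower. Among genes with at least 10 CPM in the higher group, 1108 were higher and 461 lower. The gene lists below were set against the shares of all genes, 16.3% higher and 5.99% lower. In the plot of all genes, many phototransduction, clock, and epidermal genes lie above the diagonal and many ganglion and amacrine cell genes below it.

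**Figure D1:**
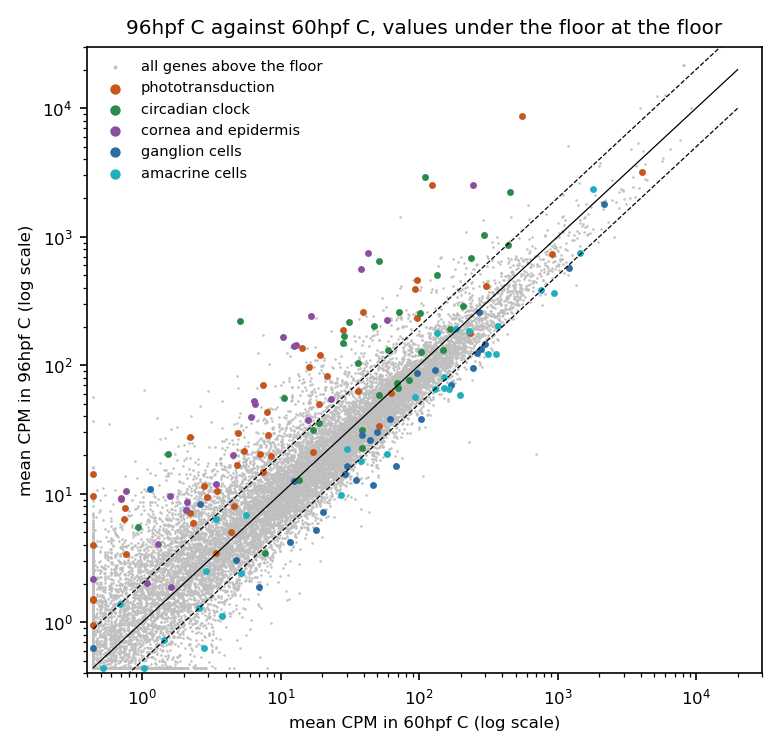
Mean CPM of each gene in 96hpf C (vertical) against 60hpf C (horizontal), both on log axes, for the 18340 genes above the floor (grey) and the members of 5 lists (colours). The solid line marks equal values and the dashed lines 2-fold differences, and *rho*, *opn1mw1*, *nr1d1*, and *krt4* stand well above them, higher in 96hpf C.

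Photoreceptor effectors were higher in 96hpf C. Of 48 phototransduction genes above the floor, 36 were higher in 96hpf C and 0 lower, where 16.3% and 5.99% of all genes were, with a median log2 of 1.81. The rod pigment gene *rho* (ENSDARG00000002193) had 8626, 8599, and 8995 CPM in 96hpf C, against 542, 539, and 588 CPM in 60hpf C, which is 15.7-fold higher (15 to 16.2). The green cone opsin *opn1mw1* had 2549, 2529.5, and 2533 CPM in 96hpf C, against 126, 122, and 122 CPM in 60hpf C, 20.6-fold higher (19.2 to 22.0). For both genes all 3 columns of 96hpf C lay far above all 3 of 60hpf C. Both genes together had 11277 CPM in 96hpf C, against 679.8 CPM in 60hpf C. The other 61 members of the list summed to 7155 CPM in 96hpf C, against 6221 CPM in 60hpf C, so that most of the difference in the list's sum lay in these opsins.

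Among the remaining opsins, the UV opsin *opn1sw1* had 234, 232, and 238 CPM in 96hpf C, against 93.7, 99.5, and 96.6 CPM in 60hpf C (2.43-fold higher). *opn1mw2*, a further green opsin, had 22.0, 35.4, and 28.4 CPM in 96hpf C, against 8.37, 7.88, and 7.95 CPM in 60hpf C (3.54-fold higher). The green opsin *opn1mw3* had 0.473, 3.23, and 0.811 CPM in 96hpf C, against 0.148, 0.295, and 0.196 CPM in 60hpf C. Its call rests on the column of 3.23 CPM, without which the log2 was 0.53, and a floor of 10 reads left 0.02. The red opsins *opn1lw1* and *opn1lw2*, the blue opsin *opn1sw2*, and the green opsin *opn1mw4* were under the floor in both groups. Of the list's 63 members, 13 were listed at 0 in all 36 columns of the table, as were 7496 genes in all, among them *PCNA*, *mki67*, and *vamp2*, genes of dividing cells and of all synapses. A listed 0 was for this reason not read as absence.

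The alpha subunits of transducin, the G protein that couples opsins to their effector, rose for both photoreceptor types. The rod alpha subunit *gnat1* had 459, 457, and 458 CPM in 96hpf C, against 97.8, 98.0, and 96.3 CPM in 60hpf C (4.70-fold higher, interval 4.33 to 5.12). The cone alpha subunit *GNAT2* had 188, 191, and 189.6 CPM in 96hpf C, against 28.6, 28.1, and 28.1 CPM in 60hpf C (6.71-fold higher, interval 5.76 to 7.84). The beta subunits split. *gnb3b* was 6.56-fold higher (5.77 to 7.49). Its paralog *gnb3a*, which had more reads than any other of those 61 members, had 3202, 3191, and 3239 CPM in 96hpf C, against 4065, 4069.7, and 4049.6 CPM in 60hpf C and a log2 of -0.34. Proteins that shut the cascade off were higher as well. The arrestins *saga* and *sagb* had 9.64-fold and 4.19-fold more CPM in 96hpf C, the cone arrestin *ARR3* 2.63-fold, the cone opsin kinase *GRK7* (ENSDARG00000020602) 9.47-fold, and *RGS9*, which speeds transducin's return to rest, 5.95-fold. *guca1c*, an activator of guanylate cyclase, had 13.8, 14.8, and 14.1 CPM in 96hpf C, against 0.148, 0.148, and 0.443 CPM in 60hpf C. The 60hpf C value is 1 to 3 reads, and the counting interval of the ratio runs from 12.96 to 402.

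In the outer segment list, 17 of 38 genes were higher and 3 lower (median log2 0.46). *prph2b*, a tetraspanin of the disc rim, had 142, 141, and 132 CPM in 96hpf C, against 12.0, 11.9, and 11.9 CPM in 60hpf C (11.6-fold higher, interval 9.21 to 14.7). Its partner *ROM1* was 5.79-fold higher (4.43 to 7.55). *impg1a*, a proteoglycan of the matrix around outer segments, was 8.31-fold higher (4.84 to 16.6). The lower members were the apical polarity gene *crb2a* (2.0-fold), *PROM1* (2.01-fold), a gene of disc formation, and *eys*, with 0.338 CPM in 96hpf C, against 0.887 CPM in 60hpf C. With the floor *eys* stood on the 2-fold line, and its log2 was -0.50 with a pseudocount of 1 CPM and -0.87 and -0.74 without the first or second 60hpf C column. *crb2a* and *PROM1* stood just past the 2-fold line and came inside it under TMM scaling (log2 -0.97 and -0.98). Genes of cilia and intraflagellar transport, a list not limited to photoreceptors, did not share the rise. Of 45 members, 2 were higher and 4 lower, and *KIF3A*, a subunit of the kinesin that carries cargo into cilia, had 106, 107, and 99.9 CPM in 96hpf C, against 161, 157, and 153 CPM in 60hpf C (log2 -0.59).

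The transcription factors that direct photoreceptor genes were nearly level. None of 20 was 2-fold higher and 1 was lower, and their summed level was 5405 to 5429 CPM in 96hpf C, against 5625 to 5649 CPM in 60hpf C. *crx*, the homeobox gene of both photoreceptor types, had 1115, 1113, and 1089 CPM in 96hpf C, against 1093, 1093, and 1073 CPM in 60hpf C. *NEUROD1*, which is expressed in developing photoreceptors, had 1343, 1339, and 1338 CPM in 96hpf C, against 1143, 1138, and 1143 CPM in 60hpf C. The columns of the groups overlapped for *crx* and lay apart for *NEUROD1*, by far less than 2-fold. *NR2E3*, a nuclear receptor of rods, came closest to a rise, with 146, 144, and 154 CPM in 96hpf C, against 75.6, 76.7, and 80.9 CPM in 60hpf C (log2 0.93), and it passed 2-fold under quantile normalization alone (1.11). *THRB*, the thyroid hormone receptor needed for red cones, stood at a log2 of -0.88, *RORB* at -0.63, *otx2* at -0.40, *six7* at -0.40, and the rod factor *nrl*, at 1.68 CPM in 96hpf C, against 1.01 CPM in 60hpf C, at 0.74. The fall was that of *foxq2*, a forkhead gene that zebrafish express in blue cones, with 1.40 CPM in 96hpf C, against 6.85 CPM in 60hpf C.

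Photoreceptor RNA was not limited to the GFP-negative cells. In the GFP fraction of 96hpf (96hpf MG), phototransduction genes summed to 300020.0 CPM, against 18432 CPM in 96hpf C, and 42 of 50 tested members were at least 2-fold higher in 96hpf MG, as were 9.05% of all genes tested between these fractions. *opn1mw1* alone stood at 166061 CPM there and *GNAT2* at 7691 CPM. *rho* stood at 59963 CPM. The columns of 60hpf MG held 63463 to 90846 reads and were not used for a like comparison. The part that the sort had in the difference between 96hpf C and 60hpf C was not tested.

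Ribbon synapse genes were also higher in part, 9 of 26 being higher and 1 lower. *cplx4a*, a complexin of ribbon terminals, had 575, 574, and 570.5 CPM in 96hpf C, against 222, 217, and 214 CPM in 60hpf C (2.63-fold higher, interval 2.48 to 2.80). The glutamate transporter *SLC17A7* (ENSDARG00000016480) had 414, 410.0, and 413 CPM in 96hpf C, against 177, 178, and 175 CPM in 60hpf C (2.34-fold higher). *lrit1a*, which modulates the photoreceptor synapse in mice, was 4.25-fold higher (3.90 to 4.64). *pclob*, an active zone scaffold, was 3.002-fold higher (2.73 to 3.30). The ribbon protein gene *ctbp2a* had 605, 611, and 608 CPM in 96hpf C, against 512, 509, and 516 CPM in 60hpf C and was within 2-fold. In a list of synaptic vesicle genes not limited to ribbon synapses, 2 of 31 rose (6.45%), 3 fell (9.68%), and the median was -0.08. Here *unc13ba* was 4.55-fold and *sv2ba* 4.48-fold higher, and *CPLX2* 2.44-fold and *SV2C* 2.35-fold lower.

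Bipolar cell genes split in the same manner. 9 of 23 members were higher and 1 lower, and none of the higher ones was a transcription factor. *cabp5b*, a calcium sensor of bipolar cells, had 175, 174, and 163 CPM in 96hpf C, against 6.52, 7.83, and 7.98 CPM in 60hpf C (22.9-fold higher, interval 17.4 to 31.3). ON bipolar cells invert the photoreceptor signal through the G protein Go and the channel TRPM1. *gnao1b*, a Go alpha subunit and the member with most reads, had 10139.9, 10116, and 10175 CPM in 96hpf C, against 3998, 3976, and 3906 CPM in 60hpf C (2.56-fold higher, interval 2.53 to 2.60). *trpm1b* had 395, 393, and 403 CPM in 96hpf C, against 146, 147, and 157 CPM in 60hpf C (2.65-fold higher, interval 2.47 to 2.85). *trpm1a* was 3.08-fold higher (2.73 to 3.48) and *NYX*, nyctalopin, which TRPM1 needs to reach the dendrite tips in mice, 3.72-fold higher (3.28 to 4.22). The fall was one of the genes named *GRM6* (ENSDARG00000017742), the glutamate receptor of ON bipolar cells, with 2.61 CPM in 96hpf C, against 5.997 CPM in 60hpf C. The transcription factors of these cells stayed within 2-fold. *VSX1* had 2778, 2779, and 2789.5 CPM in 96hpf C, against 2448, 2444, and 2477 CPM in 60hpf C, *LHX4* stood at a log2 of 0.19, *isl1* at -0.27, *IRX6* at -0.38, and *BHLHE23* at -0.65. Without *gnao1b*, the list's sum was 8941 CPM in 96hpf C and 8843 CPM in 60hpf C.

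Ganglion and amacrine cell genes went the other way. Of 29 ganglion cell genes, 15 were lower and 2 higher (median log2 -1.03). The Iroquois factor *irx4b* had 12.8, 11.4, and 10.95 CPM in 96hpf C, against 46.2, 47.6, and 46.2 CPM in 60hpf C (3.98-fold lower, interval 3.12 to 5.10). *IRX4* had 15.8, 15.4, and 18.3 CPM in 96hpf C, against 69.2, 66.7, and 67.4 CPM in 60hpf C (4.11-fold lower, interval 3.36 to 5.05). *ISL2*, a LIM homeobox gene of ganglion cells that cross the midline in mice, had 93.5, 95.5, and 98.8 CPM in 96hpf C, against 246, 246, and 244 CPM in 60hpf C (2.56-fold lower, interval 2.34 to 2.80). No column of 96hpf C reached any column of 60hpf C in these 3 genes, which covers counting error only. The POU factors *pou4f1* and *pou4f3* were 3.45-fold and 2.05-fold lower, and *RBPMS2*, an RNA-binding protein that marks ganglion cells in vertebrates, was 2.398-fold lower (2.16 to 2.67). *ELAVL3*, shared by ganglion and amacrine cells, had the most reads of the members that fell, with 570.1, 566, and 567 CPM in 96hpf C, against 1203, 1188, and 1217 CPM in 60hpf C (2.12-fold lower).

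Several other members of the list stayed within 2-fold. *ROBO2*, the Slit receptor that guides ganglion cell axons, had 258, 260.0, and 265 CPM in 96hpf C, against 268, 275, and 265 CPM in 60hpf C. *isl1*, which bipolar and amacrine cells share, had 1810.0, 1801, and 1792 CPM in 96hpf C, against 2187, 2182, and 2152 CPM in 60hpf C. *atoh7*, the gene that makes progenitors competent to form ganglion cells, stood at a log2 of -0.72 and *eomesa* at -0.70. The rises were *inaa*, an intermediate filament gene, with 10.9 CPM in 96hpf C, against 1.13 CPM in 60hpf C, and *thy1*, with 8.30 CPM in 96hpf C, against 2.62 CPM in 60hpf C. *inaa* had 312 CPM in 96hpf MG.

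Of 31 amacrine cell genes, 14 were lower and 1 higher (median log2 -0.99). The rise was *penka* at a log2 of 1.02, which came inside 2-fold under quantile normalization (0.43) and with a pseudocount of 1 CPM (0.50). The 4 AP-2 factors of the list fell. *tfap2a* had 371, 369.7, and 364 CPM in 96hpf C, against 950.0, 945, and 920.4 CPM in 60hpf C (2.55-fold lower, interval 2.44 to 2.67). *tfap2b* was 2.58-fold lower (2.38 to 2.79), *TFAP2C* 2.96-fold lower (2.74 to 3.19), and *tfap2e* 3.39-fold lower (3.04 to 3.78). *BARHL2*, a factor of amacrine and ganglion cells, was 2.25-fold lower (2.02 to 2.51). The 2 genes named *PAX6* stopped just short of the line at log2 values of -0.99 (ENSDARG00000103379) and -0.95 (ENSDARG00000045936), and the one at -0.99 crossed it under quantile normalization (-1.01).

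Transmitter genes of amacrine cells were mixed. The vesicular acetylcholine transporter *slc18a3a* was 2.03-fold lower, a call lost under TMM scaling (-0.99), while *CHAT*, which makes acetylcholine, had 22.3 CPM in 96hpf C, against 30.0 CPM in 60hpf C (log2 -0.43). *SLC32A1*, the vesicular transporter of GABA and glycine, had 202, 203, and 202 CPM in 96hpf C, against 367, 366, and 373 CPM in 60hpf C (log2 -0.87). The glycine transporter *slc6a9* had 195, 193, and 183 CPM in 96hpf C, against 187, 189, and 178 CPM in 60hpf C, with columns that overlapped between the groups. *calb2b* stood at 2351, 2353, and 2334 CPM in 96hpf C, against 1792, 1807, and 1796 CPM in 60hpf C. The other 35 members summed to 2993 CPM in 96hpf C and 5825 CPM in 60hpf C. A lower share of reads can come from fewer cells of a type in the sample or from less RNA of the gene in each cell, and bulk libraries cannot tell these apart.

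Horizontal cells were close to level. Of 9 genes, 1 rose and 1 fell. The fall was *barhl1a* at a log2 of -1.002, which came inside 2-fold under TMM scaling (-0.97). *PROX1*, which horizontal cells express strongly, had 526, 533, and 529 CPM in 96hpf C, against 474, 474, and 479 CPM in 60hpf C. *onecut1* had 78.5, 80.0, and 79.2 CPM in 96hpf C, against 70.7, 72.7, and 73.6 CPM in 60hpf C. *CALB1*, calbindin, was 2.17-fold higher (1.77 to 2.67).

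Receptors for transmitters went both ways, with 7 of 43 higher (16.3%) and 7 lower (16.3%). Of all genes, 16.3% were higher and 5.99% lower, so that the share of higher receptors was that of all genes. *GABRR1* (ENSDARG00000043902) and *GABRR2* (ENSDARG00000052982), rho subunits that bipolar cells use in mammals, were 5.17-fold and 3.86-fold higher, and *GABRA4* was 6.94-fold higher (5.35 to 8.99). The glycine receptor *glra4b* was 2.33-fold lower (2.03 to 2.68). *GRIN2A*, an NMDA receptor subunit, was 2.04-fold lower (1.71 to 2.46), which quantile normalization brought to -0.98. *GRIN1* (ENSDARG00000025728), a shared subunit of NMDA receptors, averaged 1495 CPM in 96hpf C, against 827 CPM in 60hpf C (log2 0.85).

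The 2 lists of dividing cells had median log2 values under 0, and most of their members were within 2-fold. Of 47 replication genes, 0 were called in each direction, beside 16.3% higher and 5.99% lower of all genes. Of the 47, 41 had a log2 under 0, and the median was -0.19. Over all genes the median was -0.02, and their share under 0 is not given here. *RRM2* (ENSDARG00000020711), a subunit of ribonucleotide reductase, had 206, 206, and 199 CPM in 96hpf C, against 323, 324, and 315 CPM in 60hpf C. *MCM2*, of the replicative helicase, had 149, 148, and 162 CPM in 96hpf C, against 175, 171, and 171 CPM in 60hpf C. Of 51 mitotic genes, 6 fell (11.8%), beside 5.99% of all genes, and 48 had a log2 under 0 (median -0.54). *CCNB1*, the B-type cyclin of mitotic entry, had 20.5, 21.4, and 20.3 CPM in 96hpf C, against 50.8, 48.6, and 52.66 CPM in 60hpf C (2.44-fold lower, interval 2.01 to 2.97). *prc1b*, which bundles spindle microtubules, was 3.16-fold lower (2.52 to 4.02).

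Progenitor transcription factors followed, with 4 of 35 lower (11.4%), 1 higher (2.86%), and a median of -0.43. Of all genes, 5.99% were lower and 16.3% higher. *LHX2*, a homeobox gene of the early eye, had 60.4, 60.7, and 56.1 CPM in 96hpf C, against 191, 187, and 191 CPM in 60hpf C (3.21-fold lower, interval 2.88 to 3.58). *six6b* was 2.32-fold lower (2.04 to 2.66) and *MEIS2* 2.29-fold lower (2.11 to 2.48), and *sox19a* averaged 0.796 CPM in 96hpf C, against 5.64 CPM in 60hpf C. *hmga1a*, a chromatin protein of dividing cells and the member with most reads, had 4139.7, 4137, and 4144 CPM in 96hpf C, against 5811, 5786, and 5810.1 CPM in 60hpf C (log2 -0.49). *rx1* and *rx2*, which also serve later cell types, had log2 values of -0.35 and -0.28. *mych*, a myc gene, was the rise (2.52-fold higher, interval 2.22 to 2.87).

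In the Notch list, 5 of 39 genes rose (12.8%) and 5 fell (12.8%), beside 16.3% and 5.99% of all genes. The Notch targets *her6* and *hey1* were 2.61-fold and 2.03-fold lower, although TMM scaling left *hey1* at -0.99. The target *her4.2* had 261, 257, and 251 CPM in 96hpf C, against 302, 298, and 281 CPM in 60hpf C. Reads that match several *her4* copies were divided between them, so that single copies are uncertain. The receptor *notch2* was 2.83-fold higher (2.11 to 3.79), the ligand *dll4* 2.24-fold higher (1.63 to 3.07), and the cell cycle inhibitor *cdkn1a* 2.51-fold higher (1.75 to 3.70). *neurod4*, a proneural gene of late precursors, had 1415, 1412, and 1424 CPM in 96hpf C, against 1568, 1551, and 1586 CPM in 60hpf C.

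**Figure D2:**
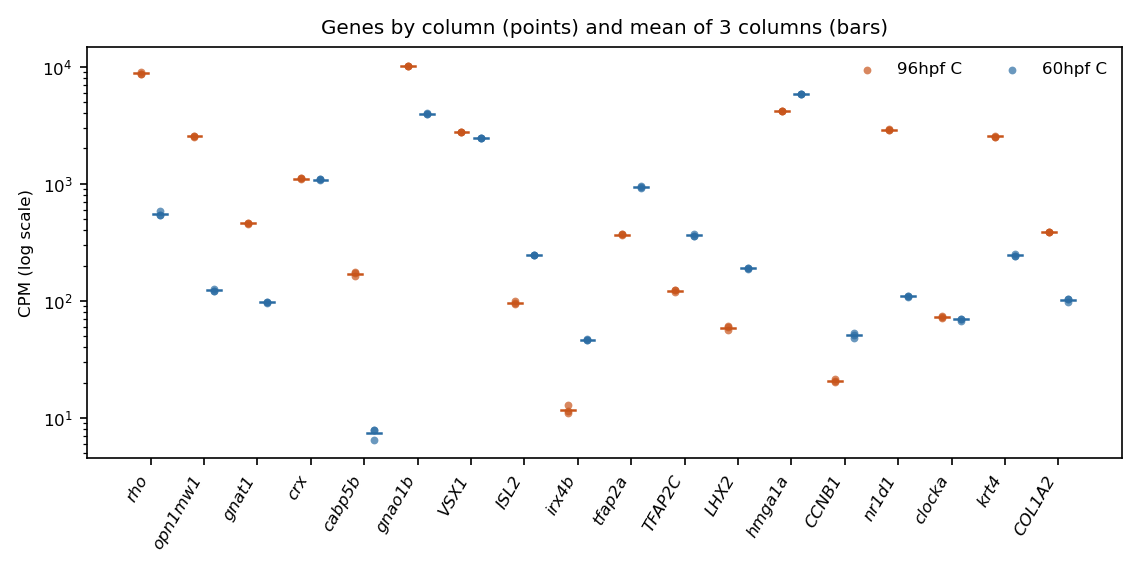
CPM on a log axis of 18 genes in each column of 96hpf C (orange, left) and 60hpf C (blue, right), with points for the 3 columns of 1 library and bars for their mean. Columns of a group lie on top of each other. *rho*, *cabp5b*, *nr1d1*, and *krt4* are higher in 96hpf C, *irx4b*, *tfap2a*, *TFAP2C*, and *LHX2* are lower, and *crx*, *VSX1*, and *clocka* differ by less than 2-fold.

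The circadian clock differed between the libraries. The vertebrate clock is a loop in which CLOCK and BMAL proteins activate the genes of their own repressors, PER and CRY, and of REV-ERB receptors (*nr1d*) and PAR bZIP factors (*dbp*, *tef*, *hlf*) that pass the rhythm on. Of 33 clock genes, 18 were higher in 96hpf C and 1 lower (median log2 1.33), and their sum was 11779.5 to 11813 CPM in 96hpf C, against 3166 to 3189.7 CPM in 60hpf C.

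REV-ERB genes and outputs of the loop rose. *nr1d1* (ENSDARG00000033160) had 2902, 2885, and 2918 CPM in 96hpf C, against 111, 111, and 108 CPM in 60hpf C (26.4-fold higher, interval 24.5 to 28.4). *nr1d2a* had 2211, 2215, and 2209.8 CPM in 96hpf C, against 459, 451, and 445 CPM in 60hpf C (4.90-fold higher, interval 4.71 to 5.09). *nr1d2b* was 3.53-fold higher (3.36 to 3.71). *nr1d4a* was 7.01-fold higher (6.07 to 8.14). All 4 sets of 96hpf C columns lay above those of 60hpf C. *dbpb* had 658, 662, and 641 CPM in 96hpf C, against 53, 51.0, and 50.1 CPM in 60hpf C (12.8-fold higher, interval 11.5 to 14.3). *hlfa* was 3.65-fold higher (3.30 to 4.04). *BHLHE41*, a repressor driven by the loop, had 221, 218, and 223 CPM in 96hpf C, against 6.08, 6.06, and 3.25 CPM in 60hpf C (43.0-fold higher, interval 30.5 to 61.4).

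Repressors of the loop rose too. *per1b* had 498, 502, and 503 CPM in 96hpf C, against 137, 138, and 131 CPM in 60hpf C (3.70-fold higher, interval 3.44 to 3.98). *PER2* and *cry1aa*, which light induces in zebrafish, were 5.87-fold higher (5.04 to 6.86) and 5.29-fold higher (4.53 to 6.21). *CRY2* was 4.33-fold higher (3.83 to 4.90). *cry3a* stood at the line, with 873, 877, and 853 CPM in 96hpf C, against 436, 435, and 437 CPM in 60hpf C (log2 0.99, and 1.02 with TMM scaling). The activators did not. *clocka* had 74.4, 70.8, and 73.0 CPM in 96hpf C, against 70.6, 70.6, and 67.3 CPM in 60hpf C. *arntl1a* had 66.6, 64.7, and 67.1 CPM in 96hpf C, against 73.6, 74.2, and 62.7 CPM in 60hpf C. *BMAL1* had 74.3, 76.2, and 78.2 CPM in 96hpf C, against 88.0, 85.1, and 82.7 CPM in 60hpf C. For *arntl1a* the columns of the groups overlapped. *npas2*, *bmal2*, *RORA*, and *rorcb* stood at log2 values of -0.08, -0.30, 0.48, and 0.30. In melatonin synthesis, *ASMT* was 13.3-fold higher (7.25 to 29.2), *asmt2* stood at a log2 of -0.76, and the fall was *aanat2*, with 3.47 CPM in 96hpf C, against 7.74 CPM in 60hpf C.

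In the C libraries of all stages, *nr1d1* averaged 16.6 CPM in 48hpf C, 110.0 in 60hpf C, 27.1 in 72hpf C, 2902 in 96hpf C, 91.4 in 120hpf C, and 1661 in 192hpf C. It was high at 96 and 192hpf and low at the other stages. In 96hpf MG, *nr1d1* (2737 CPM), *dbpb* (415 CPM), and *per1b* (412 CPM) were within 2-fold of 96hpf C. Not all clock genes were. Of 33 tested between these fractions, 4 were at least 2-fold higher in 96hpf MG and 10 in 96hpf C (median log2 -0.53). Of all genes tested there, 9.05% were higher in 96hpf MG. The share of all genes higher in 96hpf C is not given here, so that these counts are not read as particular to clock genes. The hour of dissection and the light cycle are not given in the sources used here, so that age and time of day cannot be told apart.

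**Figure D3:**
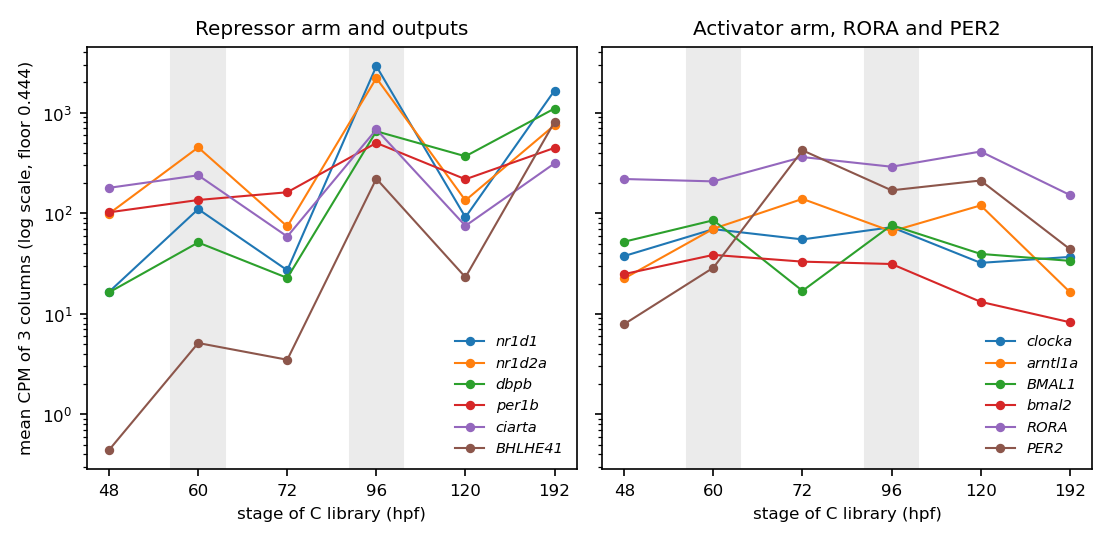
Mean CPM (log axis, values under 0.44 CPM at the floor) of clock genes in the C libraries from 48 to 192hpf, with the 60hpf and 96hpf libraries shaded. At left, *nr1d1*, *nr1d2a*, *dbpb*, *per1b*, *ciarta*, and *BHLHE41* stand higher at 96hpf than at 60hpf, and at right the activators *clocka*, *arntl1a*, *BMAL1*, and *bmal2* differ by less than 2-fold while *PER2* is higher at 96hpf.

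Immediate early genes, which cells switch on within minutes of a stimulus or of dissociation, were higher as well. 18 of 36 rose and 1 fell (median log2 0.99). *JUN* had 667, 662, and 687 CPM in 96hpf C, against 176, 179, and 173 CPM in 60hpf C (3.82-fold higher, interval 3.58 to 4.07). *junbb* had 603, 604, and 597 CPM in 96hpf C, against 246, 249.7, and 274 CPM in 60hpf C (2.34-fold higher, interval 2.22 to 2.48). *FOS*, a partner of JUN proteins in AP-1, was 2.297-fold higher (2.16 to 2.45). *cebpd*, an injury and cytokine responsive factor, had 47.4, 47.9, and 48.8 CPM in 96hpf C, against 2.82, 2.36, and 2.66 CPM in 60hpf C (18.4-fold higher, interval 11.2 to 30.8), and *SOCS3* (ENSDARG00000025428) was 5.12-fold higher (3.796 to 7.05). *dusp1* and *atf3*, of the same list, stood at log2 values of -0.09 and 0.65. The part that dissociation had in these values was not tested.

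Of 50 genes of energy metabolism, 12 rose (24%) and 1 fell (2%), beside 16.3% and 5.99% of all genes. The median log2 was 0.32. Under quantile normalization 9 rose and 3 fell, where 2177 and 1581 of all 17863 genes did. *CKB* (ENSDARG00000043257), the brain creatine kinase and the member with most reads, had 12588, 12597, and 12815 CPM in 96hpf C, against 5899, 5920.0, and 6049 CPM in 60hpf C (2.13-fold higher, interval 2.102 to 2.15), which quantile normalization brought to 0.77. The glycolytic enzymes *ALDOC* (ENSDARG00000019702) and *eno1a* were 3.09-fold higher (2.97 to 3.22) and 2.89-fold higher (2.79 to 2.99). *atp1a3b*, a neuronal sodium pump, was 2.77-fold higher (2.54 to 3.01). The mitochondrial ADP and ATP carrier *SLC25A5* had 9994, 10016, and 10071 CPM in 96hpf C, against 9135, 9145, and 9287 CPM in 60hpf C and was within 2-fold, though quantile normalization put it at -1.59.

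**Figure D4:**
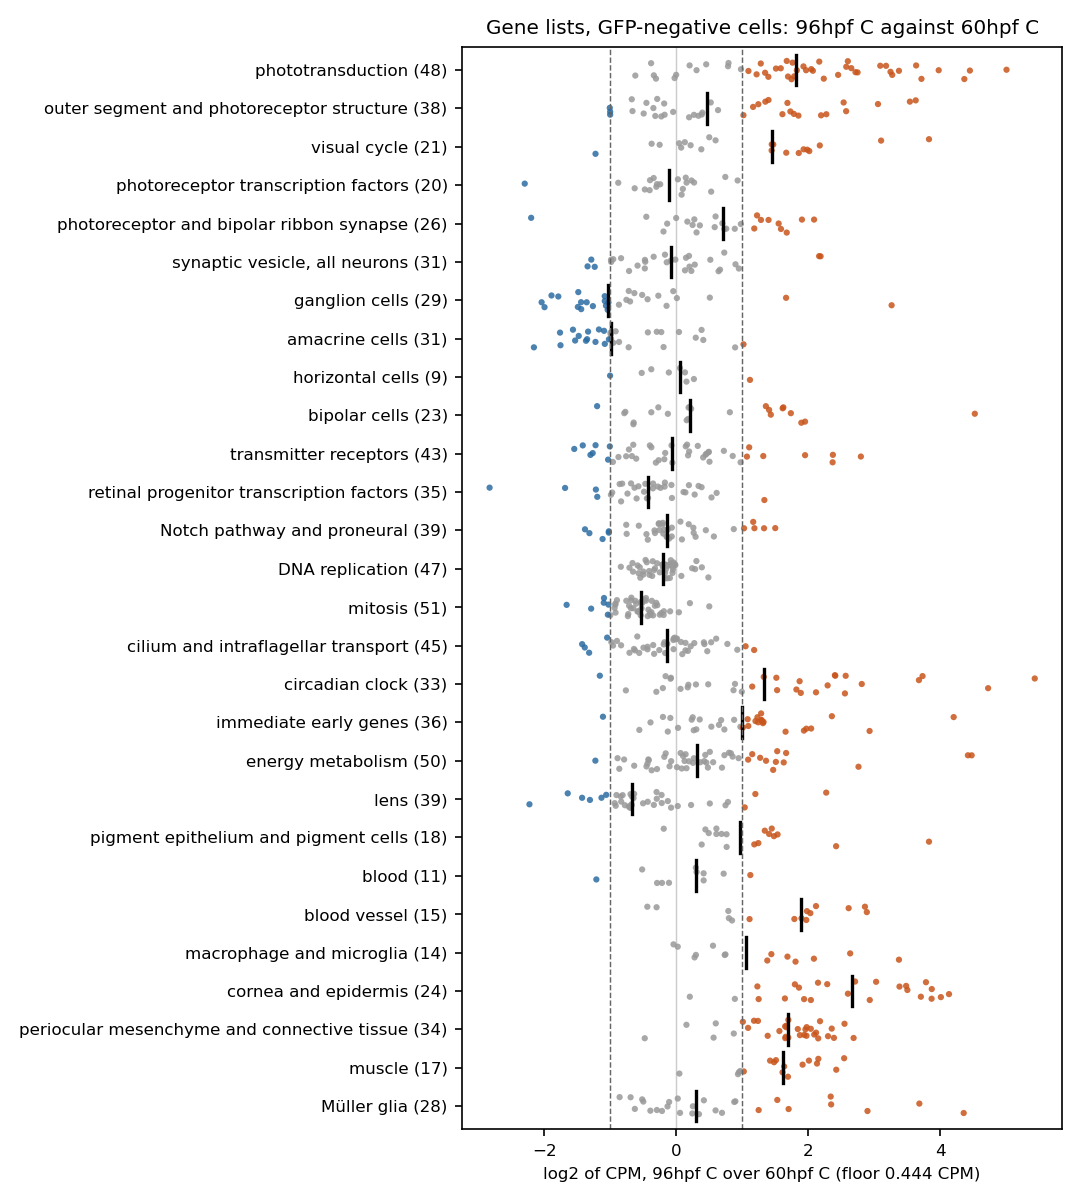
log2 of the CPM in 96hpf C over that in 60hpf C for the members of 28 gene lists above the floor (number in parentheses). Points are genes, orange where at least 2-fold higher and blue where at least 2-fold lower, black bars are list medians, and dashed lines mark 2-fold. Phototransduction, clock, epidermal, mesenchymal, and vessel lists lie to the right (medians of 1.81, 1.33, 2.65, 1.70, and 1.90) and ganglion and amacrine cells to the left (-1.03 and -0.99).

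Genes of other tissues of the eye were measured in both libraries, and most were higher in 96hpf C. Of 24 genes of cornea and skin, 22 were higher and 0 lower, and their summed level was 5052 to 5139.6 CPM in 96hpf C, against 509 to 522 CPM in 60hpf C. The keratin *krt4* had 2528, 2522, and 2579 CPM in 96hpf C, against 241, 241, and 251 CPM in 60hpf C (10.4-fold higher, interval 9.90 to 10.95). *krt5*, of the basal layer, had 757, 745, and 736 CPM in 96hpf C, against 41.4, 43.9, and 42.6 CPM in 60hpf C (17.5-fold higher, interval 15.6 to 19.8). Columns of the groups did not overlap in either gene. *TP63*, which defines the basal layer, was 2.34-fold higher (1.87 to 2.97).

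Connective tissue was higher in 29 of 34 genes and lower in 0, with a sum of 2388 to 2438 CPM in 96hpf C, against 671 to 685 CPM in 60hpf C. *COL1A2* had 391, 386, and 388 CPM in 96hpf C, against 103, 104, and 97.1 CPM in 60hpf C (3.83-fold higher, interval 3.53 to 4.17). *kera*, a proteoglycan of the corneal stroma, was 5.11-fold higher (3.33 to 8.18). Muscle rose in 13 of 17 genes (sum of 244 to 264 CPM in 96hpf C, against 105 to 114 CPM in 60hpf C), vessel endothelium in 10 of 15 (178 to 188 CPM in 96hpf C, against 90.1 to 92.8 CPM in 60hpf C), and macrophages in 7 of 14 (339 to 354 CPM in 96hpf C, against 94.2 to 95.3 CPM in 60hpf C). No member of these 3 lists was lower. Many of them have few reads, and with a floor of 10 reads the vessel list had 5 and the macrophage list 4 higher genes. With that floor the muscle genes *myhz1.3* and *smyhc1* also came inside 2-fold, at log2 values of 0.39 and 0.27. Of the macrophage list, 4 members had at least 10 CPM in either group. The list summed to 2053 CPM in 96hpf MG, so that its sum is not read as a level of macrophages. Of 11 members tested between 96hpf MG and 96hpf C, 1 was at least 2-fold higher in 96hpf MG and 2 in 96hpf C. Of all genes tested there, 9.05% were higher in 96hpf MG. *cdh5*, an endothelial cadherin, was 2.16-fold higher (1.90 to 2.46).

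Pigment cells and the pigment epithelium rose in 9 of 18 genes, with a sum of 644 to 666 CPM in 96hpf C, against 239 to 256 CPM in 60hpf C, of which *trpm1b*, shared with bipolar cells, held the larger part. *dct*, of melanin synthesis, had 72.2, 72.7, and 76.6 CPM in 96hpf C, against 28.7, 29.2, and 29.6 CPM in 60hpf C (2.53-fold higher, interval 2.15 to 2.998). In the visual cycle, which returns the opsin chromophore to its light-sensitive form in the pigment epithelium, 11 of 21 genes rose and 1 fell. Its isomerase *rpe65a* had 19.99, 19.9, and 21.0 CPM in 96hpf C, against 1.52, 1.40, and 1.37 CPM in 60hpf C (14.2-fold higher, interval 7.25 to 29.2). *rlbp1b*, the pigment epithelial retinaldehyde binding protein of zebrafish, had 67.0, 67.4, and 73.6 CPM in 96hpf C, against 26.0, 25.3, and 25.04 CPM in 60hpf C (2.72-fold higher, interval 2.29 to 3.26).

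The lens and red blood cells did not follow. Of 39 lens genes, 3 were higher and 6 lower, and their sum was 436 to 441 CPM in 96hpf C, against 738 to 758 CPM in 60hpf C. *cryba1b*, a beta crystallin, had 50.7, 50.2, and 48.8 CPM in 96hpf C, against 92.6, 97.4, and 92.7 CPM in 60hpf C (log2 -0.92). Many gamma crystallins are near-identical copies whose reads were divided, and single copies are uncertain. Blood genes summed to 1684 to 1689 CPM in 96hpf C, against 1341 to 1353 CPM in 60hpf C. The globin *hbae3* had 298, 297, and 290.2 CPM in 96hpf C, against 177, 176, and 185 CPM in 60hpf C (log2 0.72). The globins *hbaa1*, *hbaa2*, *hbae4*, *hbae5*, and *hbbe3* were under the floor. The part of these tissues in the changes of retinal genes was not tested.

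GFP-positive cells had been sorted out of the C libraries by a *gfap* reporter. *GFAP* averaged 1.44 CPM in 96hpf C, against 0.148 CPM in 60hpf C, which is under the floor of 0.44 CPM. *GFAP* stood at 17.3 CPM in 96hpf MG. How fully Müller glia were removed at either stage was not tested. Of 28 Müller glia genes, 8 were higher in 96hpf C and 0 lower, with a sum of 3359 to 3367 CPM in 96hpf C, against 3345 to 3374 CPM in 60hpf C. Within that equal sum *glula*, the glial glutamine synthetase, had 1106, 1102, and 1086 CPM in 96hpf C, against 214, 216, and 221 CPM in 60hpf C (5.06-fold higher, interval 4.78 to 5.35). *fabp7a*, a fatty acid binding protein of glia and progenitors, had 1138, 1141, and 1148 CPM in 96hpf C, against 2075, 2071, and 2063 CPM in 60hpf C (log2 -0.86). In 96hpf MG they stood at 6311 and 7561 CPM.

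**Figure D5:**
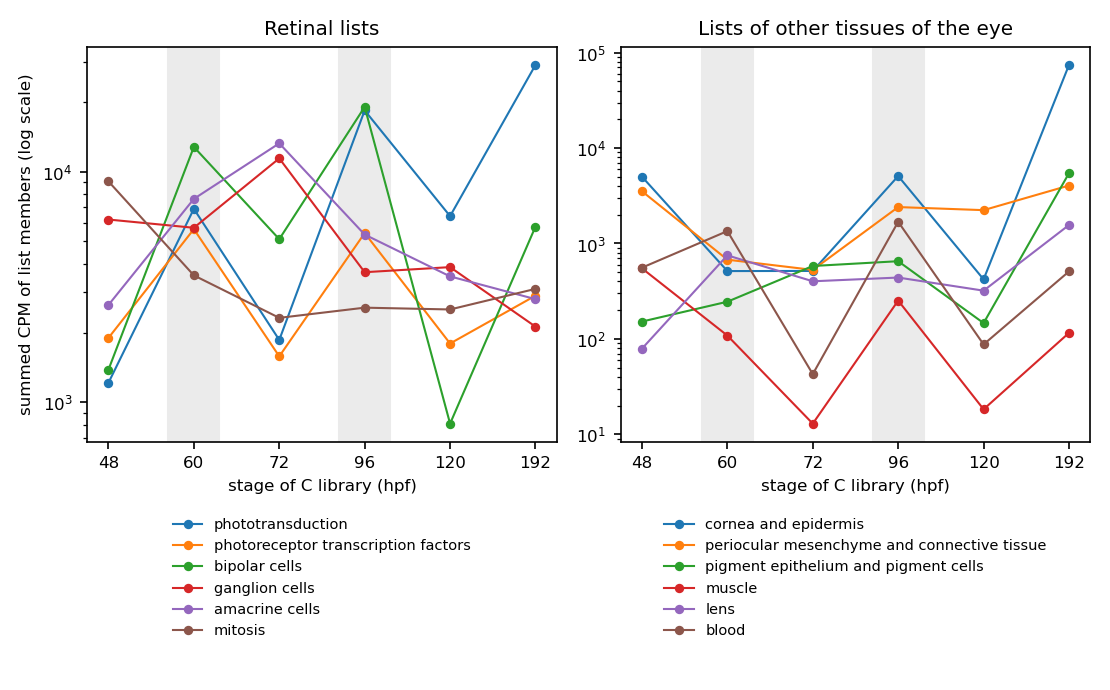
Summed CPM (log axis) of list members in the C libraries from 48 to 192hpf, retinal lists at left and other tissues of the eye at right, with 60hpf and 96hpf shaded. Phototransduction sums to 18432 CPM in 96hpf C, 6901 CPM in 60hpf C, and less at 72hpf than at either, and cornea and epidermis sum to 5086 CPM in 96hpf C, 513 CPM in 60hpf C, and 74283 CPM in 192hpf C.

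For most called genes, the level in 72hpf C did not lie between those of 60hpf C and 96hpf C. Over 18543 genes, the log2 CPM of 96hpf C and 60hpf C had a Pearson correlation of 0.945, and these stages had been chosen as the most alike of the C groups. The library of 72hpf C correlated at 0.781 with 96hpf C and at 0.793 with 60hpf C. These are correlations across genes, which are not independent, and they are given as a description. Of 2529 genes that were 2-fold higher in 96hpf C and above the floor of the 72hpf library, 33.8% lay between both stages at 72hpf, 55.1% below both, and 11.1% above both. With TMM scaling, which put the 72hpf library at a factor of 0.427 to 60hpf C, the shares were 42.5%, 35.3%, and 22.2%. Of all 17026 genes above that floor, 16.02% lay between, 68.1% below both, and 15.8% above both, and with TMM scaling 19.7%, 46.6%, and 33.7%. Of 925 genes that were lower in 96hpf C, 26.5% lay between.

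Single genes also had levels in 72hpf C outside those of 60hpf C and 96hpf C. *rho* averaged 14.7 CPM in 48hpf C, 556 in 60hpf C, 142 in 72hpf C, 8740.0 in 96hpf C, 569.9 in 120hpf C, and 16099 in 192hpf C. *crx* had 1087 CPM in 60hpf C, 192 in 72hpf C, and 1106 in 96hpf C. *rbpms2b*, the second *rbpms2* gene of ganglion cells, which was 2.04-fold lower in 96hpf C than in 60hpf C, had 298 CPM in 60hpf C, 9464 in 72hpf C, and 146 in 96hpf C. The epidermal list, for its part, summed to 5007 CPM in 48hpf C, 513 in 60hpf C, 515 in 72hpf C, 5086 in 96hpf C, 420.4 in 120hpf C, and 74283 in 192hpf C. Its 60 and 72hpf values lay side by side, while *rho* and *crx* were lower in 72hpf C than in either of the compared stages, and *rbpms2b* was higher.

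Among single genes with at least 10 CPM, those that differed most were only in part members of these lists. The cartilage and bone collagen *col10a1a* had 65.4, 63.8, and 64.5 CPM in 96hpf C, against 1.19, 1.03, and 0.886 CPM in 60hpf C (62.4-fold higher, interval 30.1 to 156). It was high in 96hpf C alone, with at most 1.70 CPM in the C libraries of other stages. *pdk2b*, a kinase that restrains pyruvate dehydrogenase, was 60.8-fold higher (22.8 to 219), and *fabp10b*, a fatty acid binding protein, 30.4-fold higher (15 to 64.6). *fabp10b* averaged 39.0 CPM in 96hpf C and at most 1.28 CPM in the C libraries of other stages. *ifitm1*, of a family of interferon-induced membrane proteins, had 35.6, 36.7, and 38.4 CPM in 96hpf C, against 0.148, 0.295, and 0.886 CPM in 60hpf C. For *si:ch211-132b12.7*, with 56.7, 58.4, and 53.9 CPM in 96hpf C, against 0.445, 0.295, and 0.443 CPM in 60hpf C, the 60hpf C value is 2 or 3 reads a column and the counting interval of the ratio is 43.2 to 619.

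The largest fall was that of *si:ch211-140b10.6* (ENSDARG00000045342), with 21.3, 20.2, and 19.2 CPM in 96hpf C, against 696, 747, and 652 CPM in 60hpf C (34.5-fold lower, interval 29.3 to 40.8). It stood at 16.1 CPM in 48hpf C and 3.29 CPM in 72hpf C, so that 60hpf C was the library with the high value. *ppat*, the first enzyme of purine synthesis, had 25.4, 24.98, and 25.1 CPM in 96hpf C, against 221, 254, and 213 CPM in 60hpf C (9.12-fold lower, interval 7.83 to 10.7). *BAG5*, a co-chaperone of HSP70, was 7.77-fold lower (6.32 to 9.70). *emilin3a*, an extracellular matrix gene, had 7.29, 7.58, and 6.90 CPM in 96hpf C, against 43.0, 42.8, and 44.5 CPM in 60hpf C (5.98-fold lower, interval 4.44 to 8.11). *EGLN3*, a prolyl hydroxylase of the response to oxygen, was 6.43-fold lower (4.12 to 10.7). Among the C libraries, *ppat*, *BAG5*, and *emilin3a* were also highest in 60hpf C, and *EGLN3* in 48hpf C (37.9 CPM). *emilin3a* had at most 0.0857 CPM in the C libraries outside 60hpf and 96hpf.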

How the data were processed

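The cells without GFP of 96hpf (3 samples) and 60hpf (3 samples) were taken from a table of 31540 Ensembl genes and 36 columns. Per the methods and the submitters' processing notes, reads were trimmed with Trimmomatic, aligned with HISAT2, and counted per gene with featureCounts. The genome build is named differently in these sources, and no coordinates were used. The deposited values are log2 CPM (counts scaled to a library of 1000000 reads), which the authors made with a prior count of 0.25 reads scaled to the library and without a TMM factor. All values lay on steps of 0.01 reads, which gave the reads back, and reads that match near-identical genes had been divided between them. Symbols were matched to 23535 IDs from a name table and to 2675 more from the study's supplement, while 5330 IDs kept none. Capital letters in a symbol are those of these tables and do not mark another species.

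CPM was averaged over the 3 columns of a group, the floor was 3 reads, and a call was 2-fold. The columns of a group were joined because their median chi-square ratios (genes with at least 20 reads in a pair) were under 1.1. Nothing in the labels names separate pools of eyes, though the study describes 3 replicates for each stage. The joining is an inference from the ratios. Intervals are exact 95% binomial intervals and cover counting error only. The 28 lists hold 1118 symbols, of which 84 matched no ID. The compared samples and the gene lists with their members were chosen with earlier results of these data known. Genes were named from each list when they differed at least 2-fold with at least 10 CPM in the higher group, up to 6 in each direction, with the 2 members of most reads. Over all genes, those with the largest changes at that level were named, and transcription factors, opsins, and clock genes could be named whatever their change, though not all were. Genes named outside this rule, among them *gnat1*, *GNAT2*, *gnb3b*, *FOS*, *SLC32A1*, *slc6a9*, *ROBO2*, *thy1*, *GFAP*, *TP63*, *cryba1b*, and *hbae3*, were chosen after their values were seen. Alternatives were TMM, median-of-ratios, and quantile scaling, a floor of 10 reads, no floor, a pseudocount of 1 CPM, leaving out each column, limma on the columns as if they were separate samples with and without a replicate block, and, chosen after seeing the data, a minimum of 10 CPM. A planned count of promoter motifs was not run, as no sequences were used here. Some genes are not reported here. Python 3.11.15, numpy 2.4.6, pandas 2.3.3, scipy 1.17.1, R 4.3.3, and limma 3.58.1 were used.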

Additional observations from a re-analysis of the deposited data

How the results depend on the processing

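No called member of the gene lists changed its direction under another scaling, another floor, a pseudocount, or with 1 column left out, while *SLC25A5*, within 2-fold, was 2-fold lower under quantile normalization (-1.59). The 2993 higher and 1099 lower genes became 3079 and 1031 with TMM scaling, 3029 and 1069 with median-of-ratios scaling, and 2974 to 3038 and 1084 to 1171 when 1 column was left out. Leaving out 1 column of 1 library could hardly change the counts. Columns 1 and 2 had chi-square ratios of only 0.129 in 96hpf C and 0.138 in 60hpf C. A floor of 10 reads left 1978 higher and 744 lower genes, no floor gave 4620 and 1898, a pseudocount of 1 CPM gave 2066 and 642, and a minimum of 10 CPM, chosen after seeing the data, left 1108 and 461. limma on the columns as if separate called 1379 higher and 354 lower genes at 2-fold without a replicate block. With the block it called 1353 and 348. Deviations of same-numbered columns correlated at -0.06, 0.03, and -0.01 over 8579 genes. They hold counting error of 1 library, so that these values cannot show whether the numbers pair the columns. The limma calls carry no replicate error, since the columns of a group were counted as 1 library. The 345 called genes counted here were list members or among the 12 largest rises and 12 largest falls with at least 10 CPM. Of these, TMM scaling brought 8 inside 2-fold, median-of-ratios scaling 4, quantile normalization 33, and a pseudocount of 1 CPM 49. A floor of 10 reads brought 26 of those it still tested inside. A count of members past 2-fold can shift by genes near the line, where 537 genes lay just inside it (log2 of 1 to 1.1) and 682 just outside (0.9 to 1). The number of genes with 72hpf C between both stages was 854 of the higher and 245 of the lower, and 1107 and 307 with TMM scaling. The vessel list's median fell to 0.59 with a floor of 10 reads, against 1.90 with 3. At the floor of 3 reads a difference was not detectable for the 4415 genes with a read that stayed under the floor in both groups.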
